A study of Mus musculus with 48 samples.

Results

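The genes described here are 5 interneuron genes of the mouse nucleus accumbens shell: Pvalb, Pthlh, Calb2, Cck and Vip. They were chosen by name, as the interneuron markers of the deposited gene table that belong neither to the somatostatin and neuropeptide Y class nor to the cholinergic class, and all 5 were found among 37620 genes. RNA was sequenced from 48 mice of the HS-CC stock, an outbred heterogeneous stock bred from the founder strains of the collaborative cross. The mice came from generation 4 of selection for ethanol preference and fell into 4 groups of 12: High females, Low females, High males and Low males. High and Low name the direction of selection, and no ethanol exposure is given for either line in the sources used here. Each line is 1 breeding population, so that selection and random drift between the lines cannot be told apart, and p-values describe no more than how these mice vary.

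Most neurons of the accumbens are spiny projection neurons that release GABA, and interneurons are a small minority that controls when the projection neurons fire. Parvalbumin, the product of Pvalb, is a calcium-binding protein of fast-spiking interneurons, which inhibit spiny neurons near the cell body. Pthlh, which encodes parathyroid hormone-like hormone, marks a wider class of striatal interneurons that includes the parvalbumin cells. Calb2 encodes calretinin, a calcium-binding protein of another striatal interneuron class that is also made in many neurons outside the striatum. Cck and Vip encode the precursors of the peptides cholecystokinin and vasoactive intestinal peptide; cortical pyramidal neurons also transcribe Cck. In RNA from whole tissue, fewer cells of a type and less RNA per cell cannot be told apart.

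Values are the authors' normalised counts, rounded by them to whole numbers, and the column totals ran from 13579559 to 14561911. The shell markers were plentiful: the 9 medium spiny neuron markers summed to between 67897 and 112333 in each library. Markers of cortical pyramidal neurons differed widely between libraries. Slc17a7, the vesicular glutamate transporter of cortical neurons, ran from 2 to 3886 with a median of 15.5. The summed count of the 6 cortical markers ran from 117 to 471 in High females, 147 to 1134 in Low females, 133 to 2693 in High males and 166 to 5200 in Low males. Among the cortical markers, Neurod6 was listed at 0 in 21 libraries and Neurod2 in 5. The 3 highest libraries by the mean of these markers were Low male 6, High male 1 and High male 10, all 3 from males, and values without them stand beside the results that they moved most.

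Calb2 was the most abundant of the 5 transcripts per length. Its median over the 48 mice was 159 normalised counts per kilobase of exon, against 62.7 for Pthlh, 48.5 for Pvalb, 26.3 for Cck and 22.5 for Vip. Calb2 lay above Pthlh in all 48 mice on this scale. The order of the others was loose, since Pthlh exceeded Pvalb in 27 of 48 mice, Pvalb exceeded Cck in 33, and Cck exceeded Vip in 28. The highest of the 5 was Calb2 in 37 mice, Pvalb in 6 and Cck in 5.

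The genes also differed in how much they varied between mice of the same group. The standard deviation within groups was 1.26 on the log2 scale for Cck, larger than that of 99.5% of the 15350 genes tested. It was 0.82 for Pvalb and 0.79 for Vip, larger than in 98.2% and 97.9% of genes. Calb2 and Pthlh varied less, with 0.39 and 0.34, while the median gene had 0.23. The 5 genes are of low to middling abundance, with mean levels above those of 16.1% (Vip) to 45.9% (Calb2) of tested genes.

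No member was called as different between the High and Low lines. Each gene was compared with limma on log2(normalised count + 0.5 ppm), where 1 ppm is about 14 normalised counts, with Benjamini-Hochberg adjustment over 15350 genes. Averaged over the sexes, 0 of the 5 were called at an adjusted p of 0.05, and 0.28% of all genes tested were called (43 genes). At that share a list of 5 genes is expected to hold no call, so the count says little about the members. None of the 5 passed an unadjusted p of 0.05, against 1392 of all genes. The log2 difference was above 0 for 4 of the 5, with a median of 0.14, while 48.5% of all tested genes were above 0.

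**Figure D1:**
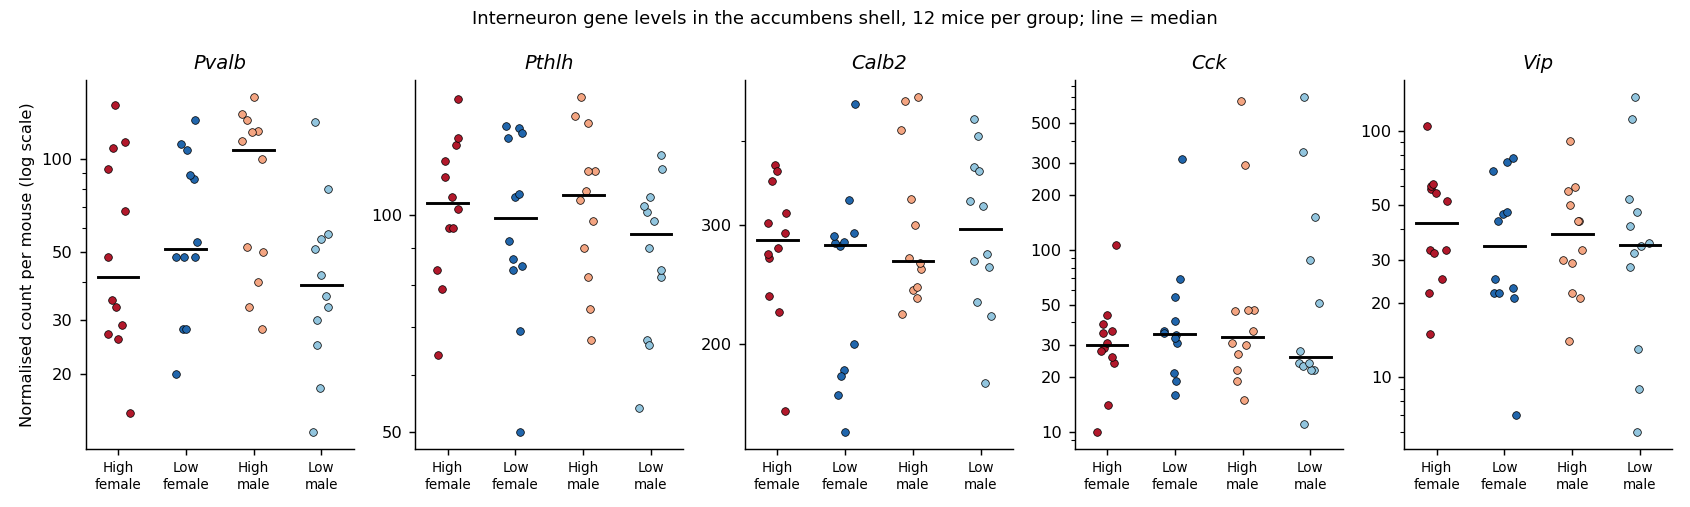
Normalised count of each gene in each mouse (log axis), with 1 point per mouse, 12 mice per group and a line at the group median. The groups overlap for all 5 genes; Pvalb has its highest group median in High males (107.5), and Cck spans 10 to 700 with its highest values in single mice of both lines.

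Of the 5 genes, Pvalb gave the largest High against Low difference in males. It ran from 28 to 160 normalised counts in High males, with a median of 107.5, and from 13 to 132 in Low males, with a median of 39. Of the 12 High males, 10 lay above the Low male median, and the groups overlapped. The means were 91.6 ± 47.6 in High males and 47.7 ± 32.5 in Low males (SD, n = 12 each). The log2 difference was 0.85 ± 0.32 (SE), with a 95% interval of 0.21 to 1.50. Its limma p was 0.0106 before adjustment and 0.538 after it, so the difference was not called. In males 0% of the genes tested were called, although 1064 had an unadjusted p under 0.05. Without the 3 libraries high in cortical markers, the difference was 0.81 with an adjusted limma p of 0.759.

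In females Pvalb did not show this order. It ran from 15 to 150 in High females, with a median of 41.5, and from 20 to 134 in Low females, with a median of 51. The groups covered nearly the same range, and 5 of 12 High females lay above the Low female median. The log2 difference was -0.17 ± 0.32 (SE; limma adjusted p = 1.0). It was -0.30 without High female 6 and -0.047 without High female 10. The line difference in females minus that in males was -1.03 ± 0.45 for Pvalb, with a limma p of 0.0282 before adjustment and 1.0 after it. That contrast gave 0% of genes called, with 368 at an unadjusted p under 0.05. In females 0.0261% of genes were called for line (4 genes), none of them a member. Averaged over both sexes, Pvalb had 76.9 ± 47.2 in High mice and 57.3 ± 35.7 in Low mice (SD, n = 24 each), a log2 difference of 0.34 with a 95% interval of -0.12 to 0.80 (limma adjusted p = 0.709).

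Pvalb has a pair of annotated starts, and the values of the exons at these starts differed. Its gene lies at chr15:78191114-78206400 on the minus strand (GRCm38). The first exon of the upstream start, which is 64 bases long and begins at 78036767 on chromosome 15 in the mm9 coordinates of the deposited table, was listed at 0 in all 48 libraries. The exon at the downstream start is 153 bases long, begins at 78034515 on mm9, and was above 0 in 47 libraries, with a mean of 5.92 ± 3.98 in High mice and 4.46 ± 2.89 in Low mice (SD, n = 24 each). Pvalb exon means over all mice also fell toward the 5' end, from 24.7 in exon 5 to 20.25, 17 and 5.19 in exons 4, 3 and 2. The upstream first exon is short and the counting method is not given, and which start was used was not tested. The windows around both starts are shown because the exon values differed between them. They run from 150 bases before to 50 after each start, are credited to RefSeq (GRCm38.p6), and lie at chr15:78206351-78206550 and chr15:78204188-78204387 on the minus strand. Capitals mark the TATTTAA motif.
Pvalb upstream start: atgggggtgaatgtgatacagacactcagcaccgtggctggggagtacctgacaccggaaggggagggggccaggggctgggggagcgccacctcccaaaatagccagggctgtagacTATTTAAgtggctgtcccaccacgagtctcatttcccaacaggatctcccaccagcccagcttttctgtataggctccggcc
Pvalb downstream start: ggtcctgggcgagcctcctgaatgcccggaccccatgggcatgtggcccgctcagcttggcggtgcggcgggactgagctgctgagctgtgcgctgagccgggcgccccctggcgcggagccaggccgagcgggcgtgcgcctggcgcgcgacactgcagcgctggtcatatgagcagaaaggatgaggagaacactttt

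The upstream window holds TATTTAA, an AT-rich motif like a TATA box, 32 bases before the start whose exon was listed at 0. It was searched on both strands of windows from 250 bases before to 50 after each start, and 4.51% of 32851 annotated promoters hold it. The downstream window, beside the exon that was detected, does not hold it. Neither window holds the TATA box letters TATAAA, which 13.6% of promoters hold.

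Pthlh, at chr6:147252101-147264183 on the minus strand (GRCm38), varied least of the 5, and its group medians lay close together. It ran from 64 to 145 in High females (median 104), 50 to 133 in Low females (median 99), 67 to 146 in High males (median 106.5) and 54 to 121 in Low males (median 94). All 4 ranges overlapped over most of their length. High mice had 105 ± 23.5 and Low mice 95.5 ± 24.1 normalised counts (SD, n = 24 each). The log2 difference was 0.14 ± 0.10 (SE), with a 95% interval of -0.053 to 0.34 (limma adjusted p = 0.719), and the Low median was exceeded in 17 of 24 High mice.

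Calb2, at chr8:110137502-110168210 on the minus strand (GRCm38), had 159 to 368 in High females (median 284.5), 148 to 454 in Low females (median 280.5), 221 to 465 in High males (median 265.5) and 175 to 431 in Low males (median 296). No group stood apart. High mice averaged 296 ± 75.4 and Low mice 280 ± 84.1 (SD, n = 24 each), a log2 difference of 0.10 with a 95% interval of -0.12 to 0.32 (limma adjusted p = 0.85).

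Vip, at chr10:5639218-5647617 on the plus strand (GRCm38), had 15 to 105 in High females (median 42.5), 7 to 78 in Low females (median 34), 14 to 91 in High males (median 38) and 6 to 138 in Low males (median 34.5). Its mean was 43.5 ± 22.7 in High mice and 42.8 ± 32.4 in Low mice (SD, n = 24 each). The log2 difference was 0.16 with a 95% interval of -0.29 to 0.60 (limma adjusted p = 0.89), an interval that holds differences in either direction. It was 0.08 without Low male 4 and 0.24 without Low male 6.

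Cck, at chr9:121489824-121495694 on the minus strand (GRCm38), was low in most mice and high in a few. It ran from 10 to 107 in High females (median 30), 16 to 316 in Low females (median 34.5), 15 to 662 in High males (median 33.5) and 11 to 700 in Low males (median 26). The medians were alike while the highest mice exceeded them many times over. The log2 difference between High and Low mice was -0.24 with a 95% interval of -0.94 to 0.46 (limma adjusted p = 0.892). Without the 3 libraries high in cortical markers, it was -0.38 (limma adjusted p = 0.774), and means were 33.8 ± 19.5 in 22 High mice and 65.2 ± 89.6 in 23 Low mice (SD). The libraries next highest in cortical markers stayed in, all of them from Low mice. These were Low male 8, Low female 4, Low female 9 and Low male 5, with Cck of 348, 316, 69 and 153. With the cortical marker mean as a covariate, the log2 difference was -0.08. Leaving out 1 library moved it to -0.40 (without High male 10) or -0.08 (without Low male 6).

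**Figure D2:**
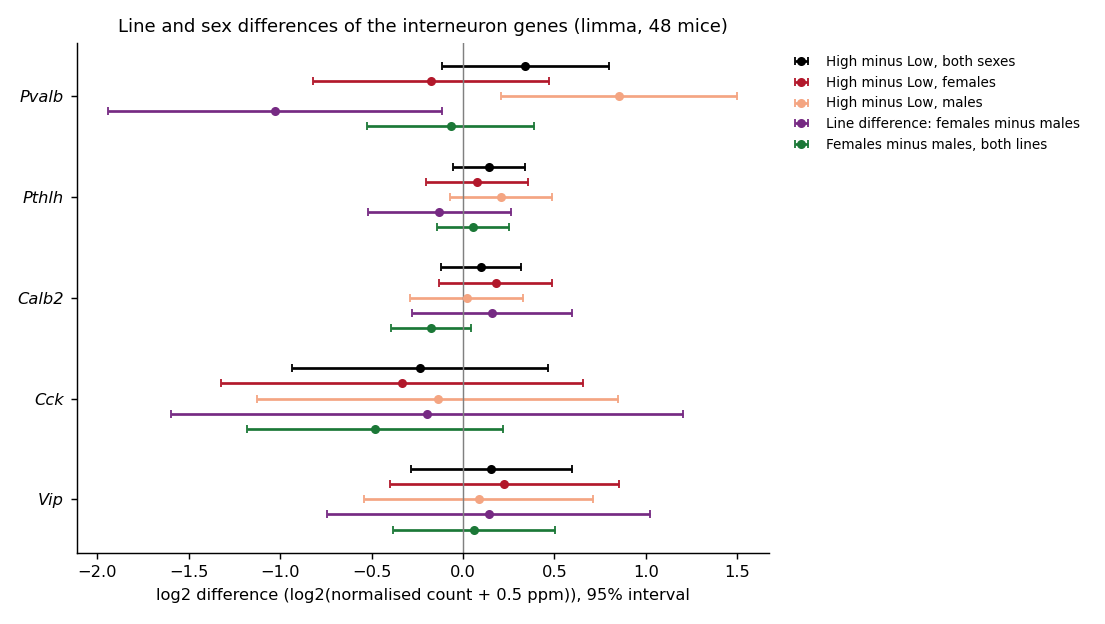
Log2 difference of each gene for 5 comparisons, with 95% intervals from limma over 48 mice. The interval for Pvalb leaves 0 for High minus Low in males and for the line difference between the sexes, and in neither case was the adjusted p under 0.05; the intervals of Cck are the widest.

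Nor was any member called for sex. Females minus males, averaged over the lines, gave 0 calls among the 5 genes, with 0.0782% of all genes tested called (12 genes). Cck averaged 47 ± 60.6 in females and 115 ± 194 in males (SD, n = 24 each), with medians of 33.5 in females and 30.5 in males, and its log2 difference was -0.48 (limma p = 0.172, adjusted p = 0.982). Without the 3 male libraries high in cortical markers, the Cck difference was -0.025 (limma adjusted p = 0.991), and with the cortical marker mean as a covariate it was -0.11. Calb2 averaged 271 ± 74.4 in females and 305 ± 82.1 in males, a log2 difference of -0.17 (limma adjusted p = 0.982). Pvalb, Pthlh and Vip differed by -0.07, 0.06 and 0.06, and without the same 3 libraries by 0.03, 0.0099 and 0.22, none of them called. Ordered by mean log2 level, neighbouring groups lay less than 0.5 within-group standard deviations apart for every member. The ends of an order lay farther apart. For Pvalb, the ends were High males and Low males, with a log2 difference of 0.85 and a within-group standard deviation of 0.82.

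For the spread between mice, too, no member was called as different between the lines. Absolute deviations of log2 values from the group median were compared with limma in the same way, and 0.0586% of genes were called (9 genes). None was a member, and the adjusted p was 0.998 for all 5. Mean absolute deviations were 0.73 in High and 0.61 in Low mice for Pvalb, and 0.67 in High and 0.88 in Low mice for Cck.

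**Figure D3:**
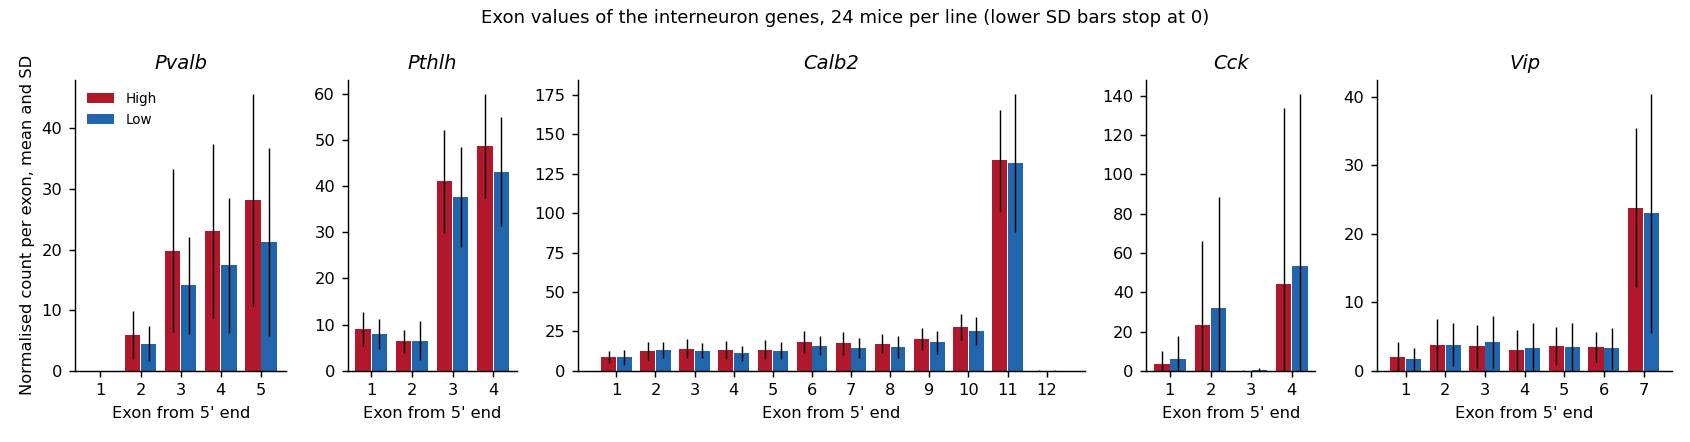
Mean normalised count of each exon in High (red, left) and Low (blue, right) mice, numbered from the 5' end of each gene; bars show 1 SD over 24 mice and start at 0. The largest share of Calb2, Cck and Vip lies in a single exon near the 3' end, and Pvalb exon 1 is at 0.

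At exon level, again, no line difference of a member was called. Of the members' exons, 29 passed the filter on low values and 0 were called, with 0.00875% of 148532 exons called. Use of exons within a gene, tested with limma's diffSplice, was called for 0.51% of 14702 genes and for none of the 5 (Simes adjusted p = 0.997 for each). At these shares no call is expected among so few exons or genes, so the counts say little about the members. The largest exon carried 37.7 ± 6.99% of the gene value of Pvalb in High mice and 35.3 ± 7.71% in Low mice (SD). For Vip the share was 56.6 ± 13.7% in High and 57.4 ± 15.8% in Low mice, and for Cck 61.1 ± 10.9% in High and 60.9 ± 9.48% in Low mice. The shares of the lines differed by less than their spread between mice.

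Across mice, Cck followed the cortical pyramidal markers closely. Group means were removed, Pearson's r and Spearman's rho were computed over 48 mice, and p-values came from 100000 permutations of mice within groups, adjusted over 45 relations (10 pairs of members and 35 between a member and a marker list). Cck and the mean of the 6 cortical markers gave r = 0.93 and rho = 0.90, with a permutation p of 1e-05, the smallest the permutations can give (adjusted p = 0.000225). Within groups, r was 0.88 in High females, 0.88 in Low females, 0.96 in High males and 0.95 in Low males. Leaving out the 2 mice farthest from the marker median gave 0.93, and leaving out the 3 libraries high in cortical markers gave 0.91.

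The mice highest in Cck show the relation directly. Low male 6 had 700 Cck and 3886 Slc17a7, High male 10 had 662 and 1387, Low male 8 had 348 and 961, Low female 4 had 316 and 862, and High male 1 had 295 and 1626. Cck exceeded 100 in 7 mice, where Slc17a7 ran from 217 to 3886. In the other 41 mice Cck ran from 10 to 88 and Slc17a7 from 2 to 244. Without the 10 libraries highest in cortical markers, a setting chosen after the data were seen, r over the remaining 38 mice was 0.69 (permutation, adjusted p = 0.00045). Interneuron and cortical sources of Cck RNA cannot be told apart in these libraries. Slc17a7 was also the gene most like Cck among 11861 compared (r = 0.92), followed by Vxn, Mpped1, Nptxr, a receptor for neuronal pentraxins, and Ptprk, a receptor tyrosine phosphatase, with r from 0.82 to 0.72.

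**Figure D4:**
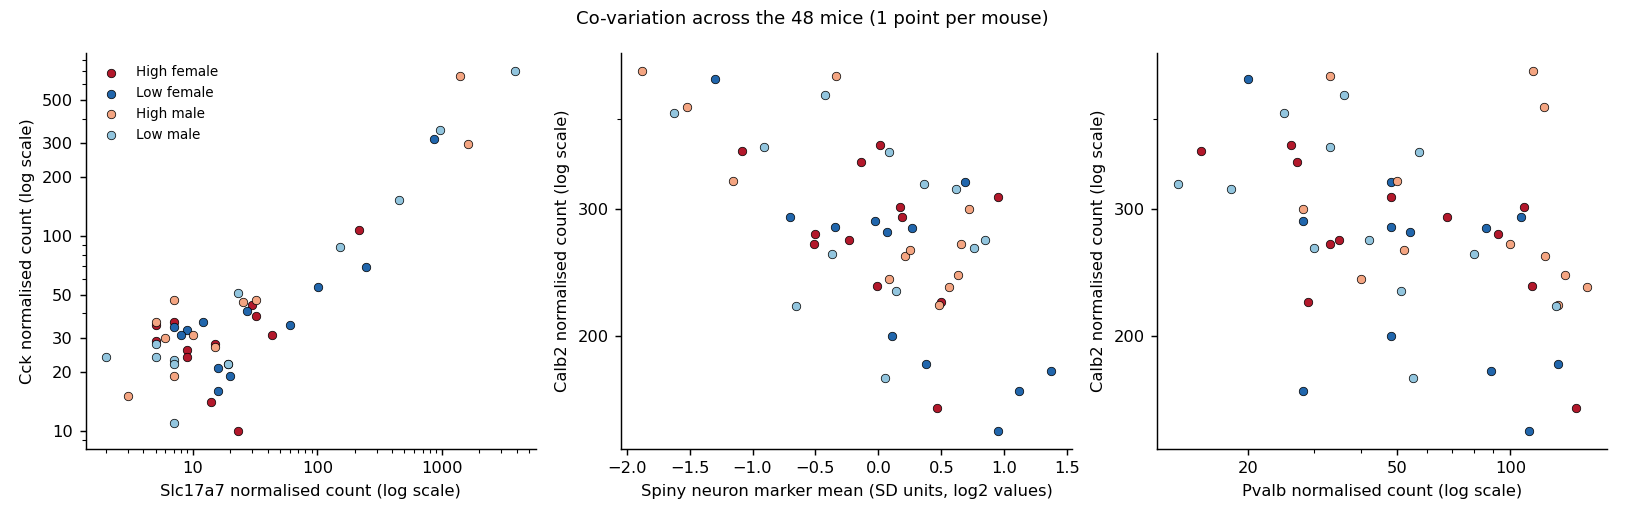
Left, Cck against Slc17a7, both in normalised counts on log axes; middle, Calb2 against the mean of 9 spiny neuron markers in SD units; right, Calb2 against Pvalb on log axes; 1 point per mouse, 12 per group. Cck climbs with Slc17a7 in mice of all 4 groups, and Calb2 is lower in mice with more spiny neuron marker RNA or more Pvalb.

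Calb2 moved opposite to the spiny neuron markers and to Pvalb. Against the mean of 9 medium spiny neuron markers, r was -0.61 and rho -0.58 (permutation p = 1e-05, adjusted p = 0.000225), and r was below 0 in all 4 groups, from -0.80 in High males to -0.35 in Low males. Against the 7 septal and diencephalic markers, r was 0.46 and rho 0.48 (permutation, adjusted p = 0.015). The summed count of those markers ran from 347 to 552 in High females, 364 to 562 in Low females, 384 to 564 in High males and 345 to 529 in Low males, and Slc17a6 and Lhx9 among them were too low to be tested. The part of tissue from outside the shell in the level of Calb2 was not tested. The genes most like Calb2 were Gng2, a G-protein gamma subunit (r = 0.81), Zcchc12 (0.78), Wdr6, Shisal1 and AW551984, the last with 0.74.

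Pvalb and Calb2 were the only pair of members past the threshold. Their r was -0.46 and rho -0.43 (permutation p = 0.00133, adjusted p = 0.015), with r of -0.63 in High females, -0.49 in Low females, -0.24 in High males and -0.53 in Low males. Leaving out the 2 mice farthest from the Pvalb median gave -0.39. With the spiny neuron marker mean removed by regression, a setting chosen after the data were seen, r was -0.51. The lowest Pvalb values, 13, 15 and 18, stood in mice with more Calb2 than the median of 278, and the highest, 160 and 150, in mice with less.

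Pvalb and Pthlh, which share a striatal interneuron class, had r = 0.40 and rho = 0.40, which missed the threshold (permutation p = 0.00623, adjusted p = 0.0561). The sign was the same in all 4 groups, with r from 0.27 in High males to 0.67 in High females. Without the 3 libraries high in cortical markers the pair passed, with r = 0.50 (permutation, adjusted p = 0.0099). Cck and Vip had r = 0.33 (permutation, adjusted p = 0.148), and 0.09 without those libraries. The other 7 pairs lay between -0.32 (Pthlh with Cck) and 0.28 (Pvalb with Vip).

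**Figure D5:**
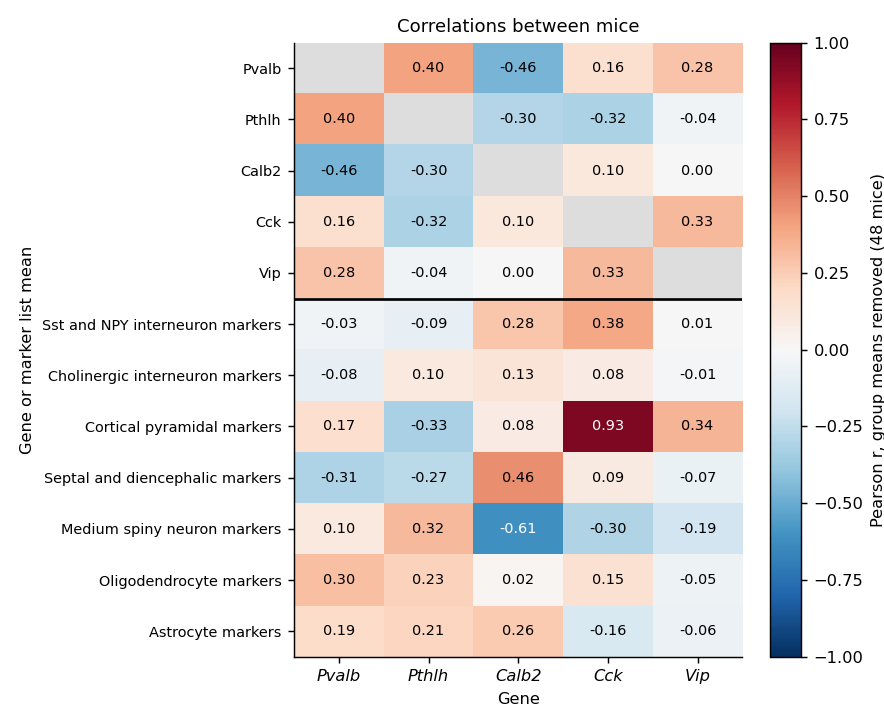
Pearson r of each gene with the other genes (upper rows) and with the mean of each marker list (lower rows), over 48 mice with group means removed. The relation of Cck with cortical pyramidal markers (0.93) is the strongest, followed by Calb2 with spiny neuron markers (-0.61). Neither Pthlh nor Vip shows a relation past the threshold.

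Vip had no close partner among the genes compared. Its highest r to any of 11862 genes was 0.49 (Ptprk), below the size of its lowest, -0.59. For Pvalb the closest gene was Nqo1, a quinone oxidoreductase (r = 0.61), followed by Lancl1, Luzp1, Nexn and Trnp1 at 0.59 to 0.58, while the lowest r to any gene was -0.66. For Pthlh it was Tac1, the precursor of substance P made by direct-pathway spiny neurons (r = 0.58), followed by Enoph1, Arpp19, Rnf103 and Slc25a5, with a lowest r of -0.65. Oligodendrocyte markers had r = 0.30 with Pvalb (permutation, adjusted p = 0.148), from 0.69 in High females to -0.37 in Low males. Of the 8 oligodendrocyte markers, 7 were lower in High mice at an unadjusted limma p under 0.05, and 0 were called. Among all 15350 genes tested, 1392 had an unadjusted p under 0.05 for line. In females 7 of the 8 markers were under that p and in males 0, with 719 and 1064 of all genes. Their summed count ran from 10270 to 23895 in High females, 15233 to 23996 in Low females, 8820 to 20704 in High males and 13022 to 24402 in Low males. Their part in the Pvalb values was not tested.

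Genes of the same interneuron classes were likewise without calls for line. Of 11 partners of the parvalbumin and Pthlh class, 0 were called for High minus Low in limma, with 0.28% of all genes tested called. At that share a list this short is expected to hold no call, so the count says little about the class. The smallest p belonged to Lhx6, a transcription factor of interneurons born in the medial ganglionic eminence, with 225 ± 30.4 normalised counts in High mice and 249 ± 31.6 in Low mice (SD, n = 24 each), a log2 difference of -0.14 (adjusted p = 0.308). Syt2, a calcium sensor of fast-spiking terminals, followed with -0.23 (adjusted p = 0.606). The median over the 11 was -0.01, against -0.0028 over all genes tested.

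Of 12 partners of the calretinin, VIP and CCK classes, 10 passed the filter and 0 were called, with 0.28% of all genes tested called. Cxcl14, a chemokine of some interneurons, had 1481 ± 204 in High mice and 1328 ± 153 in Low mice (SD, n = 24 each), a log2 difference of 0.15 (limma adjusted p = 0.262). Adarb2, a marker of interneurons from the caudal ganglionic eminence, had -0.12 (limma adjusted p = 0.656). Sp8 and Npas1 were too low to be tested.

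The receptors for the members' peptides were measured at very different levels. Vipr1, a receptor for VIP, ran from 228 to 717 (median 375), while Vipr2 ran from 1 to 19 (median 8). Cckbr, the brain type cholecystokinin receptor, ran from 85 to 354 (median 162), and Cckar was listed at 0 in 39 of 48 libraries. Pth1r, which binds the Pthlh product, ran from 62 to 170 (median 103), and Pth, the other ligand of that receptor, was listed at 0 in all 48.

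Of 13 peptide ligands, receptors and receptor partners, 7 passed the filter and 0 were called for line, with 0.28% of all genes tested called. Ramp1, a partner protein of peptide receptors, came closest, with 2039 ± 198 in High mice and 1829 ± 166 in Low mice (SD, n = 24 each), a log2 difference of 0.15 in limma (adjusted p = 0.0818), and it exceeded the Low median in 20 of 24 High mice. Cckbr had 175 ± 53.7 in High mice and 157 ± 55.8 in Low mice (limma adjusted p = 0.769).

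Peptide processing and GABA synthesis had 0 of 13 and 0 of 5 genes called, with 0.28% of all genes tested called. Lists this short are expected to hold no call at that share. Chga, a granin of secretory granules, had a log2 difference of 0.12 (limma adjusted p = 0.57), and Scg2, another granin, -0.10 (limma adjusted p = 0.776). Gad2 and Gad1, the enzymes that make GABA, had 0.10 and 0.06 (limma adjusted p = 0.647 and 0.734). Among the other interneuron classes, Sst, the somatostatin precursor, was the only called gene of 4 somatostatin and neuropeptide Y markers, with 1772 ± 388 in High mice and 2360 ± 542 in Low mice (SD, n = 24 each; limma log2 difference -0.40, adjusted p = 0.0233). The cholinergic markers Slc5a7 and Chat had 0.09 and -0.02, and neither was called.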

How the data were processed

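Poly(A) RNA of the nucleus accumbens shell, taken by laser microdissection, was measured in 48 mice, per the labels' protocols. A gene table and an exon table were deposited, and their unit is a score, since the authors had normalised and rounded their counts. Per the submitters' processing notes, reads were handled with STAR 2.4.0, edgeR 3.4.2 and R 3.0.2 on build mm9, in roles not stated. The normalisation, counter, strand setting and annotation are not given in the sources used here. Without a stated strand, reads of a gene and of an antisense partner cannot be told apart. Whole reads were not recovered, so no count model was fitted and no counting interval attached. Because the column totals were made alike, a gene's value is relative to all others.

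The fit held 15350 genes, all 5 members included, that reached 1 ppm (14.1 units of the mean column total) in 12 or more libraries. limma 3.58.1 in R 4.3.3, with a mean-variance trend, was fitted to log2(value + 0.5 ppm) with a mean per group, and fold changes of low genes are understated on this scale. Exons at 0.1 ppm or more were tested with a pseudocount of 0.05 ppm. Correlations used Python 3.11.15 and scipy 1.17.1. The code was checked on simulated data. Symbols matched 32897 identifiers (GENCODE M21, GRCm38), and lengths are the exons of protein-coding transcripts. Of the members, 4 matched a RefSeq promoter. No position was converted between builds.

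The members, lists and rules were chosen with earlier results of these data known. Named genes were the members, the called genes of each list (or else those with the 2 smallest p), and the 5 genes most correlated with each member among those at a mean of 5 ppm or more. Slc18a3 and Lhx8 are not analysed here. Families and litters were not given, and mice were treated as independent. Alternatives covered pseudocount, filter, scaling, array weights, a cortical covariate and left-out libraries.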

Additional observations from a re-analysis of the deposited data

How the results depend on the processing

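No member was called in any of 5 comparisons under 8 other settings or with any of 48 libraries left out; the lowest adjusted p was 0.342 (Pvalb in males). Of 1400 such values 25 changed sign, all uncalled. For Calb2 in males, High minus Low was -0.0442 with array weights and -0.0217 without the 3 libraries high in cortical markers, which also gave 0.083 for the sex difference in the Cck line effect and 0.0322 for Pvalb in females minus males. With 1 library left out, High minus Low in males ran from -0.0449 to 0.0702 for Calb2, -0.463 to 0.18 for Cck and -0.0665 to 0.25 for Vip. In females Pthlh ran from -0.00143 to 0.134. The line difference between the sexes ran from -0.515 to 0.128 for Cck and -0.0239 to 0.292 for Vip, and females minus males from -0.132 to 0.00329 for Pvalb and -0.0169 to 0.141 for Vip.

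Genes called for High minus Low numbered 43, and 80 with array weights; they ran from 30 to 58 with 1 library left out. In females there were 4, 2 without a filter, 7 with array weights and 2 to 8 with 1 library left out. In males there were 0 to 1, the 1 without High male 6. Exon use was called for 75 genes, 34 at an exon filter of 0.5 ppm and 37 at an exon pseudocount of 0.2 ppm.

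Pairs of members past the threshold numbered 2, the second being Pvalb with Pthlh, with group means kept (r = 0.43), without the 3 libraries (0.50) and with the cortical mean removed (0.49). Without the 3 libraries r was -0.00745 for Pvalb with Cck, 0.0561 for Pthlh with Vip, and -0.0665 and -0.00362 for Pvalb and Vip with cortical markers. With the cortical mean removed it was 0.0825 for Pthlh with Vip and -0.0255 for Calb2 with Vip. The causes were not tested. Depth before normalisation is unknown, which limits Vip, the lowest member. No paired analysis was possible because the labels give each mouse its own number.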

Other observations

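Among the lists, the smallest p for sex belonged to Htr3a and Ramp3, which are named here after their values were seen. Htr3a, the ion channel receptor for serotonin carried by VIP and other interneurons, had 10.5 ± 5.48 normalised counts in females and 17.5 ± 8.92 in males (SD, n = 24 each), a log2 difference of -0.48 in limma (p = 0.00114, adjusted p = 0.612). Of the 24 females, 7 lay above the male median. Ramp3, a partner protein of peptide receptors, had 122 ± 39.6 in females and 172 ± 58.9 in males (SD, n = 24 each), a log2 difference of -0.46 in limma (p = 0.00523, adjusted p = 0.982). Neither was called.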
